A study of Mus musculus with 62 samples.

Results

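The 10 genes described here belong to the embryonic and fusion program of skeletal muscle: Myh3, Myh8, Myl4, Actc1 and Tnnt2, which code for sarcomere proteins of developing or cardiac muscle; Mymk, Ncam1 and Cdh15, which act at the surface of myogenic cells; and Igf2 and H19, an imprinted gene pair. They were taken by symbol from the 34460 gene symbols in the expression tables of the series. All 10 were found in the table of chow-fed mice, where Mymk is written Tmem8c. In each of the remaining 3 tables, 9 of the 10 were matched. H19 was not matched there, so its level under hypoxia, the diet or ChREBP overexpression is not known here.

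The study asked what carbohydrate response element-binding protein (ChREBP, gene Mlxipl), a glucose-sensing transcription factor, does in muscle. RNA-seq was made from 62 mouse samples in 4 tables. The mice were males, for which the methods give an age of 8 to 10 weeks, without saying whether this is the age at the start of a diet or at sampling. F/F mice carry a floxed Mlxipl exon and no Cre, and their ChMKO littermates carry the same floxed exon with Cre under the muscle creatine kinase promoter, which is active in differentiated striated muscle. The first table holds gastrocnemius (GC) and soleus (SOL) of chow-fed F/F and ChMKO mice, with 5 mice per group. The second, called the stress table here, holds GC of both genotypes with 4 mice per group: in normoxia on chow, after 2 weeks in a chamber set to the oxygen of 5500 m altitude, or after 3 months on a high-fructose diet (HFrD, 68% of calories as fructose). The third holds GC of wild-type C57BL/6J mice 14 days after intramuscular injection of an adeno-associated virus with ChREBP (AAV-ChREBP) or its control (AAV-CON, which carries GFP), with 5 samples per group. The fourth holds C2C12 cells, a mouse myoblast line, on day 7 of differentiation in horse serum, stably transduced with ChREBP or with the empty vector, with 4 culture wells per group. Wells of 1 transduced line are not separate transductions, so the p-values for C2C12 cells measure the spread between wells.

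Sarcomeres are first built from embryonic and neonatal isoforms, which adult isoforms replace as fibres mature and which return when fibres regenerate. Myoblasts recognise each other through adhesion proteins such as M-cadherin (Cdh15) and NCAM (Ncam1) and then fuse, for which myomaker (Mymk) and its partner myomixer (Mymx) are both needed. Igf2 is a fetal growth factor, and H19 is a non-coding RNA from the neighbouring imprinted locus and the host of miR-675. In the GRCm38 assembly, which the sequences below use, the myosin genes Myh3 (chr11:67078273-67102291, plus strand) and Myh8 (chr11:67277124-67308634, plus) lie in 1 cluster, and Myl4 lies further along the chromosome (chr11:104546017-104587215, plus). Actc1 is at chr2:114047282-114052875 (minus) and Tnnt2 at chr1:135836315-135852268 (plus). Mymk is at chr2:27061636-27072161 (minus), Ncam1 at chr9:49502129-49799393 (minus) and Cdh15 at chr8:122848374-122867397 (plus). Igf2 (chr7:142650768-142666816, minus) and H19 (chr7:142575530-142578146, minus) are neighbours.

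The Mlxipl level followed the labels. It was 0 to 0.02 FPKM (fragments per kilobase of transcript, scaled to the mapped reads of the library) in C2C12 cells with vector and 12.8 to 13.8 with ChREBP. In GC it was 10.3 to 12.3 with AAV-CON and 52.9 to 101 with AAV-ChREBP. In the stress table it was 7.76 to 10.8 in F/F and 2.38 to 4.49 in ChMKO mice. In the chow table the ranges were 20.4 to 30.3 against 12.5 to 18.5 in GC, and they overlapped in SOL (43.8 to 64.1 against 30.0 to 46.1). All 5 myofibre markers checked (Acta1, Ckm, Des, Myh4 and Ttn) had a mean above 0.5 FPKM in every group. The stress libraries held 14473169 to 23460511 reads, with a median of 18327210; for the other tables the depth is unknown. The 4 tables were normalized separately, so levels in different tables are set side by side without a test.

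All tests below are limma on log2(FPKM + 1) over every gene with a mean of at least 0.5 FPKM in the libraries compared, two-sided, with Benjamini-Hochberg adjustment over all of these genes. A fold change on this scale understates the change of genes with low values. A gene passed the test with an adjusted p under 0.05.

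ChREBP overexpression in C2C12 cells went with higher levels of embryonic sarcomere genes and of the fusion gene Mymk. Myh3, Actc1, Myl4, Tnnt2 and Mymk rose, Cdh15 and Myh8 fell, and Ncam1 and Igf2 did not pass the test. Thus 7 of the 9 members tested passed, where 30.5% of the 11972 genes tested did. The 5 that rose stand beside 16.3% of all genes and the 2 that fell beside 14.1%, and the wells of the same 7 did not overlap between groups, as for 31.3% of all genes.

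**Figure D1:**
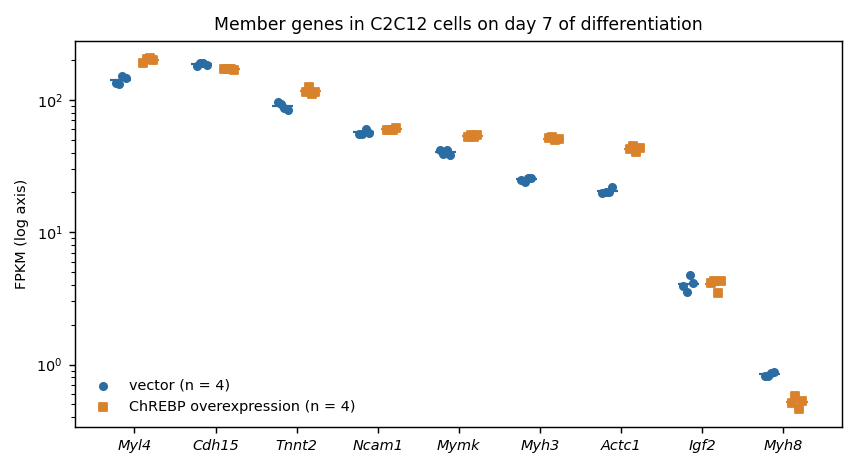
FPKM (log axis) of 9 member genes in C2C12 cells on day 7 of differentiation; each point is 1 culture well, circles stand for vector and squares for ChREBP overexpression (4 wells each), and lines mark the group means. Myh3 and Actc1 show the widest gap upwards (Myh3 24.1 to 25.9 against 50.1 to 52.3 FPKM), while Igf2 overlaps.

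Myh3 codes for the embryonic myosin heavy chain of developing and regenerating fibres. It measured 24.9, 24.1, 25.7 and 25.9 FPKM with vector and 51.3, 52.3, 50.1 and 50.2 FPKM with ChREBP. Every well with ChREBP lay above every vector well, and the wells of a group were close to each other. The log2 fold change was 0.99 (SE 0.0315, adjusted p = 4.69e-09 by limma). Among the FPKM of 6 heavy chain genes (Myh1, Myh2, Myh3, Myh4, Myh7 and Myh8), the share of Myh3 was 59.7% ± 0.859 (SD, n = 4) with vector and 80.4% ± 0.933 with ChREBP. FPKM is per length, so these shares compare genes. The adult fast chains Myh1 and Myh4 fell in the same cells, by 0.50 and 0.32 on the log2 scale, and the slow chain Myh7 rose by 0.27 from a level of 0.773 FPKM.

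Actc1 codes for cardiac alpha-actin, the main sarcomeric actin of the heart and of early skeletal muscle. Its wells measured 19.8, 20.1, 20.2 and 22.1 FPKM with vector and 42.7, 44.7, 40.4 and 43.7 FPKM with ChREBP, without overlap. The log2 fold change was 1.03 (SE 0.0425, adjusted p = 3.45e-08 by limma). Its adult partner Acta1, skeletal alpha-actin, also rose, by 0.34. The share of Actc1 in the sum of both actins was 6.98% ± 0.605 (SD, n = 4) with vector and 11.0% ± 0.590 with ChREBP.

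Myl4, the embryonic and atrial essential light chain, rose from 134, 132, 152 and 146 FPKM to 190.2, 203, 206 and 199 FPKM (log2 fold change 0.50, SE 0.0457, adjusted p = 1.39e-05 by limma). Tnnt2, the cardiac troponin T that embryonic muscle also uses, rose from 96.0, 93.5, 87.5 and 84.3 FPKM to 114, 125, 109.8 and 115 FPKM (0.36, SE 0.0477, adjusted p = 2.25e-04). Both were high in all 8 wells and their groups did not overlap. Unlike Myh3 and Actc1, they kept about the same place among their adult relatives. Myl4 made up 31.9% ± 3.15 (SD, n = 4) of the summed FPKM of Myl1, Myl3 and Myl4 with vector and 31.7% ± 1.28 with ChREBP. Tnnt2 made up 32.4% ± 1.34 of Tnnt1, Tnnt2 and Tnnt3 with vector and 30.3% ± 0.780 with ChREBP. The relatives Myl1, Tnnt1 and Tnnt3 rose by 0.52, 0.50 and 0.49.

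Myh8, the neonatal heavy chain, was near the floor of the table in these cells. It measured 0.82, 0.82, 0.86 and 0.88 FPKM with vector and 0.51, 0.58, 0.46 and 0.53 FPKM with ChREBP. It fell by 0.28 on the log2 scale (SE 0.0623, adjusted p = 0.00604 by limma). Its coding sequence shares long identical stretches with Myh4 and Myh1, which fell too, so its value is uncertain.

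The sequences 5′ of the start sites of Myh3, Tnnt2, Actc1 and Myl4, the 4 sarcomere members that rose, are shown because these genes moved together. They are from RefSeq (GRCm38.p6), 250 bases each, 5′ to 3′ on the strand of the gene, and the match was by symbol. In Myh3 (chr11:67078050-67078299, plus strand) and Tnnt2 (chr1:135836084-135836333, plus strand) the capitals mark E-boxes, CANNTG on either strand, the letters that myogenic bHLH factors recognise. In Actc1 (chr2:114052876-114053125, minus strand) they mark a CArG box, the site of serum response factor. In Myl4 (chr11:104550413-104550662, plus strand) neither motif was found and nothing is in capitals. The Myl4 window belongs to a start site that lies inside the gene span given above. The windows of Myh3 and Tnnt2 also end inside the gene spans given above. Positions are counted back from the end of each window, so they depend on the start site used.
Myh3: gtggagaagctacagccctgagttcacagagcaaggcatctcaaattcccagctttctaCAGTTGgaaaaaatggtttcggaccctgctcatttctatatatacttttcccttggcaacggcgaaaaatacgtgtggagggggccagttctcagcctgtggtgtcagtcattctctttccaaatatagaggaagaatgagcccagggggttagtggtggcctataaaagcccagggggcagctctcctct
Tnnt2: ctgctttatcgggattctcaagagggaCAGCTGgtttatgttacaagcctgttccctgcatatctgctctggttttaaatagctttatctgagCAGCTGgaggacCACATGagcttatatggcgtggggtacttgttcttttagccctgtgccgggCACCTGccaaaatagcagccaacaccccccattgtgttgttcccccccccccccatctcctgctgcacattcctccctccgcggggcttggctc
Actc1: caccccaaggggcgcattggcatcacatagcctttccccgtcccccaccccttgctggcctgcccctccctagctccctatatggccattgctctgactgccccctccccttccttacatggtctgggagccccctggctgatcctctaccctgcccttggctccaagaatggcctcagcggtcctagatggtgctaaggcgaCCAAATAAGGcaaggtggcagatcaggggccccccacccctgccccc
Myl4: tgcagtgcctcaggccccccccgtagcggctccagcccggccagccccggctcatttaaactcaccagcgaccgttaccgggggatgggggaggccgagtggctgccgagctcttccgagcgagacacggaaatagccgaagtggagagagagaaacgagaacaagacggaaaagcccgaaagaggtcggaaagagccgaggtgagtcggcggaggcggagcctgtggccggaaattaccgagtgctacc
The Myh3 window held 1 E-box, at base -191, and TATAAA at base -29. The first Tnnt2 window held 4 E-boxes. The Actc1 window held no E-box and 1 CArG box at base -47. Over 32851 promoters of this length, 66.2% held an E-box, 12.4% TATAAA and 1.47% a CArG box. CACGTG, a letter string inside the E-box pattern and the core of carbohydrate response elements, was in 6.02% of promoters. Among the members with a promoter in the table it was in that of Cdh15 only (1 match, among 3 E-boxes). The windows of Myl4 and Myh8 held 0 and 1 E-boxes. Mymk, Ncam1 and H19 were not matched.

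Mymk codes for myomaker, the membrane protein that fusing myoblasts require. It measured 42.0, 38.7, 42.0 and 38.0 FPKM with vector and 52.8, 54.1, 52.5 and 54.3 FPKM with ChREBP, without overlap (log2 fold change 0.40, SE 0.0369, adjusted p = 1.42e-05 by limma). Its partner Mymx, myomixer, was at 26.7 to 32.7 FPKM with vector and 46.0 to 49.4 FPKM with ChREBP (0.66, adjusted p = 5.59e-06). In a list of 19 fusion genes that holds Mymx but none of the members, 15 were tested, 6 rose (Cd9, Cdh2, Dock5, Itgb1, Jam2, Mymx) and 2 fell (Kirrel, Rac1). The median log2 fold change of the 15 was 0.07 and that of all genes was 0.00259.

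The adhesion members moved little. Ncam1, which mediates contact between muscle cells and with nerve, measured 55.1, 55.2, 60.2 and 56.3 FPKM with vector and 59.6, 59.1, 59.3 and 61.1 FPKM with ChREBP. The ranges overlapped and the log2 difference of 0.08 (SE 0.0323) did not pass (adjusted p = 0.0975 by limma); without vector well 3, the highest of its group, it passed (0.10, adjusted p = 0.0190). Cdh15, M-cadherin, which is found on satellite cells and myoblasts, measured 180.5, 190.3, 190.2 and 185 FPKM with vector and 171, 171, 171 and 169 FPKM with ChREBP. It fell by 0.13 (SE 0.0264, adjusted p = 0.00396). Myf5, another satellite cell marker, rose by 0.21 in the same cells. The summed level of Pax7, Myf5 and Cdh15 was 219 to 228 FPKM with vector and 211 to 217 FPKM with ChREBP. Most of this sum is Cdh15 itself (means 186 and 171 FPKM), so the sum says nothing apart from the fall of Cdh15.

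Igf2 did not differ beyond its spread. It measured 3.93, 3.56, 4.75 and 4.15 FPKM with vector and 4.13, 4.31, 3.49 and 4.29 FPKM with ChREBP (log2 difference -0.01, SE 0.0785, adjusted p = 0.937 by limma). Of the other IGF axis genes, 2 of 14 tested rose (Igf2bp3, Igfbp2) and 4 fell (Igf2r, Igfbp3, Igfbp6, Irs1), with a median of -0.03. In the list of imprinted genes, 2 of 8 rose (Mest, Ndn) and 1 fell (Igf2r).

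Some other genes of differentiation moved with the members in C2C12 cells. Of all genes, 16.3% passed as higher and 14.1% as lower, and their median log2 fold change was 0.00259. Of 9 myogenic regulators tested, 4 rose (Mef2c, Myf5, Myog, Six4) and 0 fell, with a median log2 fold change of 0.13. Myog, the regulator of terminal differentiation, was at 45.4 to 49.1 FPKM with vector and 71.8 to 79.1 FPKM with ChREBP. Of 9 genes known to rise after denervation, several of which embryonic muscle also uses, 6 rose (among them Chrna1, Chrnd, Chrng, Musk and Myog) and 0 fell, with a median of 0.34. Myog is counted in both lists, and the remaining genes of both lists did not pass. Chrng, the fetal subunit of the acetylcholine receptor, was at 22.5 to 24.3 and 31.8 to 34.7 FPKM. Of the adult sarcomere partners, 5 of 8 rose (Acta1, Myh7, Myl1, Tnnt1, Tnnt3) and 2 fell (Myh1, Myh4), with a median of 0.30.

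Smooth muscle markers moved in the same direction as the embryonic sarcomere genes. All 3 that were tested of 4 (Acta2, Cnn1, Tagln) rose, and the summed level of the list was 389 to 411 FPKM with vector and 714 to 737 FPKM with ChREBP. Fibroblast markers summed to 2948 to 3066 and 2668 to 2854 FPKM, and 3 of 4 fell (Col1a1, Dcn, Pdgfra). The part of these markers in the result was not tested. Fewer cells of a type and less RNA per cell cannot be told apart in bulk samples.

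In adult muscle most members were far below these levels, with exceptions in Myh8, Actc1 and Igf2. Members with a mean of at least 0.5 FPKM numbered 9 of 10 in each chow group, 3 to 7 of 9 in the stress groups, 6 of 9 in both AAV groups and 9 of 9 in both C2C12 groups. Myh3 made up at most 0.216% of the 6 heavy chains in any muscle library, Myl4 at most 0.0826% of its light chains and Tnnt2 at most 0.157% of its troponins. Myh8 made up 1.28% to 1.76% of the heavy chains in chow GC, against 0.743% to 2.07% in C2C12 cells, and at most 0.00986% in the stress table. Actc1 made up 5.19% to 13.8% of both actins in the AAV table, against 6.45% to 11.7% in C2C12 cells, and as little as 0.0934% in chow SOL.

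In the chow-fed mice, SOL and GC differed in most members. SOL is a slow and oxidative muscle and GC a mostly fast one. Of the 9 members tested in F/F mice, 4 were higher in SOL (H19, Tnnt2, Ncam1, Igf2) and 2 were lower (Myh8, Actc1), where 50.4% of all genes passed, 37.9% as higher and 12.5% as lower. In ChMKO mice the same 6 passed in the same direction and Myh3 was higher as well, where 57.9% of all genes passed, 41% as higher and 16.9% as lower. The groups did not overlap for the same 6 genes in both genotypes (35.9% and 43% of all genes). The median of all genes was 0.18 in F/F and 0.15 in ChMKO mice on the log2 scale, so the differences below stand against a shift towards SOL.

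**Figure D2:**
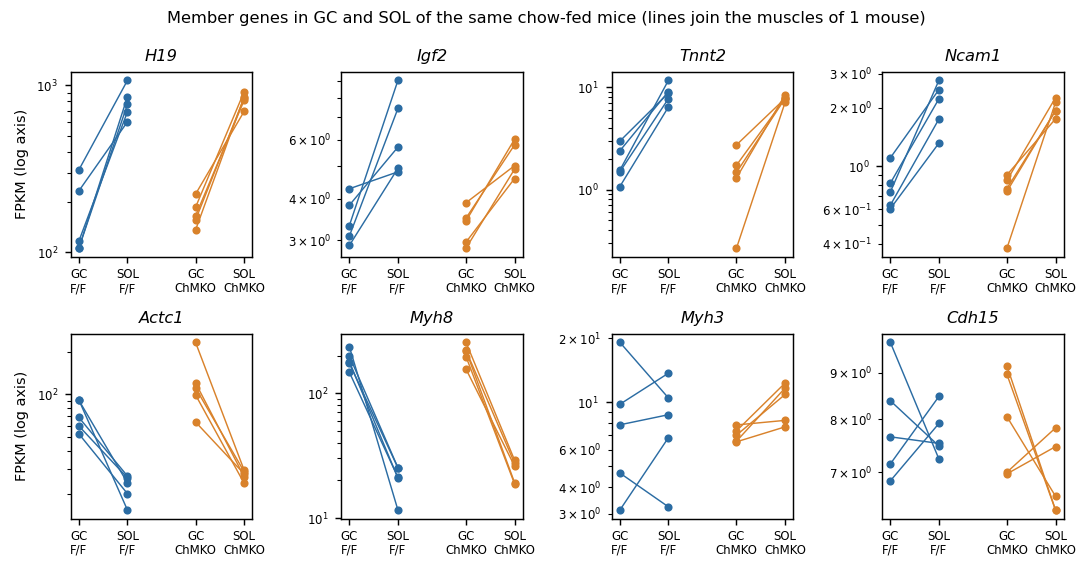
FPKM (log axes) of 8 member genes in GC and SOL of chow-fed F/F and ChMKO mice (5 mice each); each line joins the 2 muscles of 1 mouse. H19 is higher in SOL in all 10 mice (105.8 to 311 FPKM in GC, 605 to 1070.3 in SOL) and Myh8 is lower in SOL in all 10, while the Cdh15 ranges overlap.

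H19, the imprinted non-coding RNA, was the member with the highest SOL level. In F/F mice it measured 117, 311, 105.8, 106 and 233 FPKM in GC and 694, 1070.3, 855, 770.1 and 605 FPKM in SOL, in the order of the mice 57, 58, 69, 70 and 71. All SOL values lay above all GC values, and within GC mice 58 and 71 lay above the other 3. The log2 fold change was 2.31 (SE 0.306, adjusted p = 1.33e-04 by limma). In ChMKO mice GC was at 136 to 223 and SOL at 697 to 914 FPKM (2.26, SE 0.121, adjusted p = 5.65e-08).
H19 is the host of miR-675, whose arms are printed from RefSeq (GRCm38.p6, chr7:142577112-142577133 and chr7:142577078-142577099, minus strand) with the seed, bases 2 to 8, in capitals; the microRNA itself was not measured.
miR-675-5p: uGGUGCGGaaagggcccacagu
miR-675-3p: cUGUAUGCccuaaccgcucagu

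Igf2, the neighbour of H19, was higher in SOL by a smaller step. It measured 2.90, 4.28, 3.09, 3.82 and 3.32 FPKM in GC and 4.93, 4.81, 7.45, 5.71 and 9.04 FPKM in SOL of F/F mice (log2 fold change 0.70, SE 0.156, adjusted p = 0.00355 by limma). In ChMKO mice GC was at 2.84 to 3.89 and SOL at 4.59 to 6.02 FPKM (0.54, adjusted p = 3.01e-04). Other imprinted genes did not all move this way. Of 13 tested in F/F mice, 4 were higher (Grb10, Ndn, Nnat, Peg3) and 1 was lower (Slc38a4), with a median of 0.11. In ChMKO mice 3 of 12 were higher (Grb10, Igf2r, Nnat) and Slc38a4 was lower again, with a median of -0.01.

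Tnnt2 measured 1.07 to 2.97 FPKM in GC, with a median of 1.54, and 6.40 to 11.7 FPKM in SOL, with a median of 8.78, in F/F mice (log2 fold change 1.77, SE 0.187, adjusted p = 3.04e-05 by limma). In ChMKO mice the ranges were 0.267 to 2.73 and 7.08 to 8.42 FPKM (1.89, adjusted p = 2.40e-05). Ncam1 measured 0.604 to 1.10 FPKM in GC and 1.32 to 2.77 FPKM in SOL of F/F mice (0.79, SE 0.134, adjusted p = 6.45e-04) and 0.379 to 0.903 against 1.75 to 2.26 FPKM in ChMKO mice (0.80, adjusted p = 1.90e-05). Both genes were thus higher in SOL without overlap. Differences of the same sign between the muscles were found for the receptor genes Chrna1 and Chrnd (1.38 and 1.00 in F/F mice). The denervation genes did not all move this way, since Chrnb1 and Gadd45a passed as lower. Of 14 fusion genes tested in F/F mice, 7 were higher (Cd81, Cd9, Dock1, Itgb1, Jam2, Jam3, Myof) and 1 was lower (Stab2), with a median of 0.31 against 0.18 over all genes, of which 37.9% were higher. In ChMKO mice 6 of the 14 were higher (the same genes without Myof) and 2 lower (Rac1, Stab2), with a median of 0.17 against 0.15 over all genes, of which 41% were higher. Of 9 myogenic regulators, 2 were higher (Mef2c, Mef2d) and 3 lower (Mef2a, Myf6, Myod1), with a median of -0.15.

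Actc1 went the other way. GC of F/F mice measured 91.0, 52.7, 91.5, 59.9 and 68.8 FPKM and SOL 23.8, 20.0, 15.3, 25.8 and 26.6 FPKM (it fell by 1.66, SE 0.186, adjusted p = 4.48e-05 by limma). GC of ChMKO mice measured 121, 234, 64.0, 99.5 and 111 FPKM and SOL 26.4, 29.3, 27.6, 23.7 and 28.6 FPKM (it fell by 2.05, SE 0.258, adjusted p = 4.33e-05). SOL values were close together and GC values spread, with ChMKO mouse 60 the highest.

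Myh8 was far lower in SOL, but its level depended on the table. It measured 147 to 236 FPKM in GC and 11.6 to 25.3 FPKM in SOL of F/F mice (it fell by 3.13, adjusted p = 1.51e-06 by limma) and fell by 3.07 in ChMKO mice. Myh4, the heavy chain of the fastest fibres, fell as well, by 5.21 and 5.82. In chow GC the level of Myh8 was 1.67% ± 0.160 (SD, n = 5) of that of Myh4 in F/F and 1.78% ± 0.138 in ChMKO mice. In SOL the ratio ran from 2.06% to 109%. In the stress table, where the group means of Myh4 were 8227 to 10376 FPKM against 11150 and 11720 FPKM in chow GC, and in the AAV table, Myh8 was at 0.000885% to 0.0116% of Myh4. Of all windows of 75 bases in its transcripts, 10.1% also occur in Myh2, Myh1 or Myh4. The longest stretch that the coding sequences of Myh8 and Myh4 have in common is printed because it shows this: 164 identical bases in capitals, with 20 coding bases on each side. In Myh8 it spans 2 exons within chr11:67297333-67297726 and in Myh4 within chr11:67251947-67252579 (GRCm38, plus strand).
Myh8: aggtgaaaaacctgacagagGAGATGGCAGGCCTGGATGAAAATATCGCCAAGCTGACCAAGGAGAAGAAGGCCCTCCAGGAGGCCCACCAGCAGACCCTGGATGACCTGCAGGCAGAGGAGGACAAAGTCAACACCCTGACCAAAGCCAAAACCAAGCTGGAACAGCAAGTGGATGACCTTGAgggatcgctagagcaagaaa
Myh4: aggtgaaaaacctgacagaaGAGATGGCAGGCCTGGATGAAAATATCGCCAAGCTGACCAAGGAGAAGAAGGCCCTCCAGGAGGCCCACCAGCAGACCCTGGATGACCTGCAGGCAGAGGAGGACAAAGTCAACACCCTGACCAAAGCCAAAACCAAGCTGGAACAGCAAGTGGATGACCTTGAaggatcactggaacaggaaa
How the counting in each table assigned reads from such stretches was not tested, so the Myh8 difference between the muscles is uncertain.

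Myh3, Myl4 and Cdh15 showed smaller or no differences between the muscles. Myh3 measured 3.11 to 19.1 FPKM in GC and 3.23 to 13.7 FPKM in SOL of F/F mice, and the groups overlapped (0.06, adjusted p = 0.925 by limma). In ChMKO mice it measured 6.52 to 7.83 and 7.67 to 12.3 FPKM (0.45, SE 0.119, adjusted p = 0.00696), which was lost when libraries were rescaled by the median of ratios (0.27, adjusted p = 0.0734). The level of Myh3 also depended on the table. Its mean was 8.91 FPKM in chow GC and 0.442 FPKM in normoxic GC of F/F mice, and 0.226 FPKM in GC with AAV-CON. Of all windows of 75 bases in its transcripts, 1.84% also occur in other genes, most of them in Myh13. How reads from these were assigned was not tested, so the chow level of Myh3 is uncertain. Myl4 was at 1.1 to 3.85 and 2.17 to 5.54 FPKM in F/F mice (0.53, adjusted p = 0.0863) and passed when SOL of mouse 57 (0.67, adjusted p = 0.0341) or GC of mouse 69 (0.68, adjusted p = 0.0326) was left out. Cdh15 was at 6.85 to 9.73 and 7.24 to 8.48 FPKM (-0.03, adjusted p = 0.813). Mymk lay under the limit of 0.5 FPKM in both muscles, with 0 to 0.117 FPKM in GC and 0.114 to 0.272 FPKM in SOL of F/F mice. Tested without that limit it was higher in SOL in F/F (0.19, adjusted p = 0.0151) and in ChMKO mice (0.19, adjusted p = 0.00525).

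Other cell types and fibre types differed between the muscles as well. All 4 endothelial markers were higher in SOL of both genotypes (summed 29.3 to 65.2 FPKM in GC and 95.5 to 153 FPKM in SOL of F/F mice), as were all 4 erythroid markers and 3 of 4 smooth muscle markers in F/F mice. Of 4 adipocyte markers, Adipoq and Fabp4 were higher in SOL of both genotypes, and the 4 summed to 129 to 174 FPKM in GC and 307 to 587 FPKM in SOL of F/F mice. The cardiac and slow-fibre chain Myh6 was at 0.113 to 1.17 FPKM in GC and 36.5 to 49.8 FPKM in SOL of F/F mice. The other 3 cardiomyocyte markers lay under the limit for testing. The part of these cell types in the differences of the members was not tested.

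Deletion of ChREBP in muscle changed no member by the adjusted test in any of the 5 settings measured. The Mlxipl level over the whole gene, which also counts transcripts without the floxed exon and cells without Cre, passed as lower in the 3 settings of the stress table and not in chow GC (adjusted p = 0.413 by limma) or SOL (adjusted p = 0.384). In chow GC 0 of 9 members tested passed in limma (0.0236% of all genes), and 1 had an unadjusted p under 0.05 (4.63% of all genes). In chow SOL 0 of 9 passed (0.0225%), with 0 at an unadjusted p under 0.05 (9.74%). In normoxic GC 0 of 4 passed (0.00922%), with 2 at an unadjusted p under 0.05 (11.1%). In hypoxic GC 0 of 6 passed (0.00941%), with 0 at an unadjusted p under 0.05 (5.27%). In high-fructose GC 0 of 4 passed (0.019%), with 0 at an unadjusted p under 0.05 (7.36%). In the 3 settings of the stress table, voom on recovered reads called 0 members as well.

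**Figure D3:**
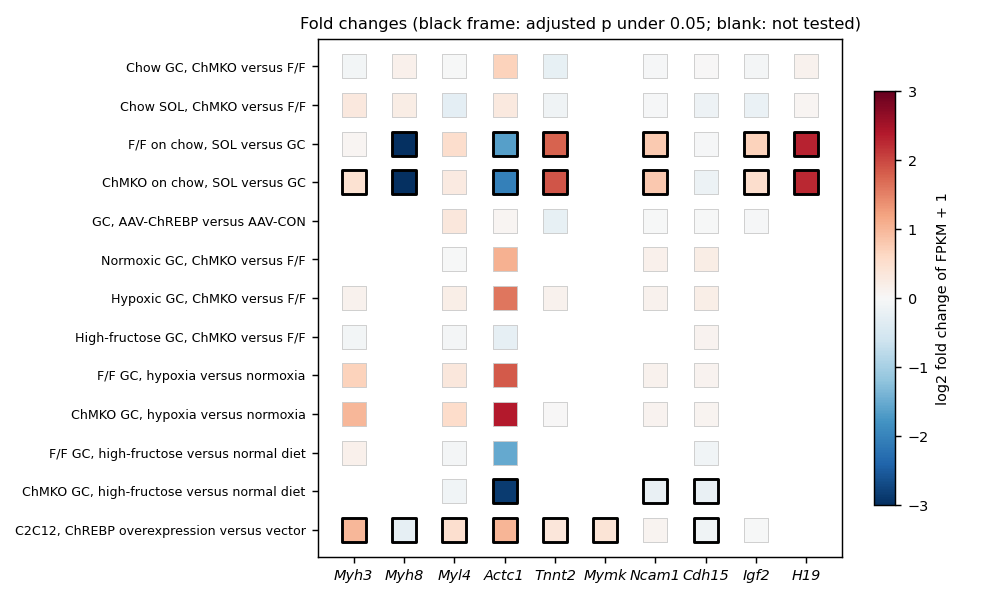
Log2 fold change of FPKM + 1 (colour scale) for the 10 members (columns) in 13 comparisons (rows); a black frame marks an adjusted p under 0.05 in limma, and blank fields were not tested. Frames are found in the rows for C2C12 cells, SOL versus GC and high-fructose diet in ChMKO mice, and none in the rows for ChMKO versus F/F or AAV.

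Actc1 differed most between the genotypes of the members tested in GC, and in SOL its difference (0.29, adjusted p = 0.518 by limma) was close to that of Myh3 (0.31, adjusted p = 0.703). In chow GC it was at 52.7 to 91.5 FPKM in F/F and 64.0 to 234 FPKM in ChMKO mice (log2 fold change 0.69, SE 0.288, unadjusted p = 0.0362, adjusted p = 1.00 by limma). In normoxic GC it measured 101, 171, 84.3 and 110 FPKM in F/F and 317, 326, 157 and 189 FPKM in ChMKO mice. Of the ChMKO mice 3 lay above all F/F mice, and the groups overlapped by 1 mouse on each side (1.06, SE 0.289, unadjusted p = 0.00540, adjusted p = 0.419). In hypoxic GC the means were 735 ± 787 (SD, n = 4) in F/F and 1783 ± 1623 in ChMKO mice (1.6, SE 0.986, unadjusted p = 0.136, adjusted p = 0.532). In high-fructose GC the means were 40.3 ± 15.5 (SD, n = 4) in F/F and 34.7 ± 19 in ChMKO mice (-0.28, adjusted p = 0.929). Cdh15 had an unadjusted p of 0.0257 in normoxic GC (4.05 to 4.55 against 4.52 to 5.44 FPKM, adjusted p = 0.419).

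No other member passed in chow GC or SOL. In chow GC the log2 differences (ChMKO minus F/F) of Myh3, Myh8, Myl4 and Tnnt2 were -0.08, 0.16, -0.02 and -0.25, with SE of 0.338, 0.146, 0.216 and 0.262. Those of Ncam1, Cdh15 and Igf2 were -0.04, 0.01 and -0.05, with SE of 0.105, 0.104 and 0.10. Differences of Myh3 and Tnnt2 were thus measured with less precision than those of the adhesion genes. H19 was at 105.8 to 311 FPKM in F/F and 136 to 223 FPKM in ChMKO GC (0.12, SE 0.296). In chow SOL the differences of Myh3, Myh8, Myl4 and Tnnt2 were 0.31, 0.23, -0.29 and -0.13, with SE of 0.283, 0.203, 0.176 and 0.122. Those of Ncam1, Cdh15, Igf2 and H19 were -0.03, -0.14, -0.21 and 0.06, with SE of 0.123, 0.0745, 0.149 and 0.141. The test of whether the genotype difference changed between GC and SOL called 0 of 9 members (0.00759% of all genes), with 0 at an unadjusted p under 0.05 (5.99%) in limma.

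Injection of AAV-ChREBP into GC changed no member by the adjusted test. Of the 6 tested 0 passed in limma (0.00906% of all genes, which is Mlxipl itself), and 0 had an unadjusted p under 0.05 (2.89% of all genes). Myl4, which rose in C2C12 cells, was higher with AAV-ChREBP in 5 of 5 samples of the same number and did not pass the adjusted test; of all genes 7.59% had the 5 samples on 1 side. It measured 4.41, 3.98, 2.58, 5.70 and 7.16 FPKM with AAV-CON and 5.06, 4.99, 5.99, 6.72 and 7.63 FPKM with AAV-ChREBP (0.34, SE 0.189, adjusted p = 1.00 by limma). With the numbers as a block its SE was 0.117, the unadjusted p = 0.0182 and the adjusted p = 0.853, where 5.81% of all genes had an unadjusted p under 0.05 with the block. Tnnt2 measured 1.33 to 2.45 and 1.17 to 1.79 FPKM (-0.24, SE 0.116, adjusted p = 1.00 by limma) and was lower in 5 of 5 samples of the same number (unadjusted p = 0.0235 and adjusted p = 0.853 with the block). Myh3 was at 0.026 to 0.397 and 0.061 to 0.312 FPKM and Mymk at 0.052 to 0.645 and 0.182 to 0.509 FPKM, both under the limit for testing. The labels do not say whether samples of the same number come from 1 mouse. The difference between muscle and C2C12 cells in the response to ChREBP was not tested.

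Actc1 was high in the AAV table whatever the virus carried. It measured 3067, 1344, 1427, 1124 and 1924 FPKM with AAV-CON and 3493, 1631, 1539, 1082 and 1658 FPKM with AAV-ChREBP, in the order of the sample numbers 1, 3, 4, 7 and 8 (0.06, SE 0.309, adjusted p = 1.00 by limma). Sample 1 was the highest and sample 7 the lowest in both groups. Its share in both actins was 7.64% ± 2.77 (SD, n = 5) and 8.06% ± 3.33, against 0.397% ± 0.0834 in chow GC of F/F mice. The tables differ in processing, in the injection and in the mice (C57BL/6J against F/F), and uninjected muscle is not in the AAV table, so these cannot be told apart. Igf2 was at 5.68 to 7.44 and 5.91 to 7.02 FPKM and Cdh15 at 4.13 to 5.60 and 4.62 to 5.38 FPKM, with overlapping groups.

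**Figure D4:**
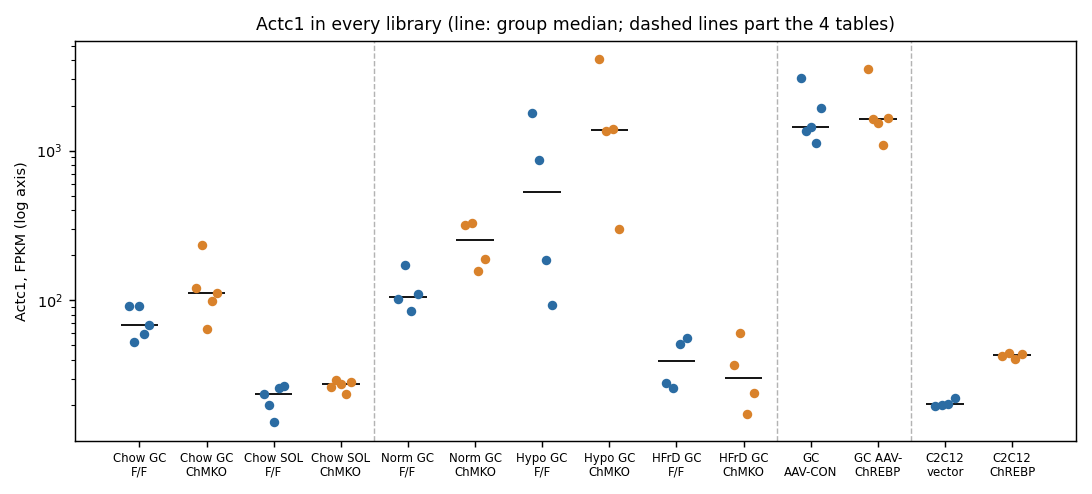
Actc1 FPKM (log axis) in every library of the 14 groups; points are libraries, lines are group medians, dashed lines part the 4 tables, and colours alternate between neighbouring groups. Hypoxic GC spreads from 92.8 to 4097 FPKM, high-fructose GC stays between 17.5 and 60.5, and both AAV groups lie between 1082 and 3493 FPKM.

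Hypoxia went with a wide spread of Actc1, and no member passed the test. In F/F mice Actc1 measured 101, 171, 84.3 and 110 FPKM in normoxia and 1796, 864, 186 and 92.8 FPKM in hypoxia. Of the hypoxic mice 3 lay above all normoxic mice and 1 lay among them (log2 fold change 1.84, SE 0.836, adjusted p = 1.00 by limma). In ChMKO mice it measured 317, 326, 157 and 189 FPKM in normoxia and 4097, 1348, 1390 and 298 FPKM in hypoxia, again with 3 hypoxic mice above all normoxic mice and 1, mouse KOc345, among them (2.38, SE 0.630, unadjusted p = 0.00344, adjusted p = 0.115). Without mouse KOc345 the difference was 3.06 and passed (adjusted p = 0.0198).

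Myh3 was at 0.233 to 0.713 FPKM in normoxic and 0.383, 1.40, 1.66 and 2.29 FPKM in hypoxic F/F mice (0.70, SE 0.246, unadjusted p = 0.02, adjusted p = 1.00 by limma). In ChMKO mice it was at 0.148 to 0.445 FPKM in normoxia and 0.453, 0.805, 1.37 and 5.57 FPKM in hypoxia, without overlap (1.00, SE 0.379, adjusted p = 0.244). Without mouse KOc345, the highest, the difference of Myh3 was 0.54 (adjusted p = 0.169). Myh3 passed the limit on low values through the hypoxic groups alone, with normoxic means of 0.442 (F/F) and 0.269 FPKM (ChMKO), so its part in the counts below supports nothing. These levels rest on 13 to 64 reads per normoxic and 36 to 627 reads per hypoxic library. Myl4 was at 0.671 to 1.58 and 1.14 to 3.77 FPKM in ChMKO mice (0.54, adjusted p = 0.303, and 0.30, adjusted p = 0.373, without mouse KOc345) and at 0.420 to 1.88 and 1.22 to 1.86 FPKM in F/F mice (0.34, adjusted p = 1.00).

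In F/F mice 0 of 5 members tested passed in limma (0% of all genes), with 1 at an unadjusted p under 0.05 (3.83%). In ChMKO mice 0 of 6 passed (0.89% of all genes), with 3 at an unadjusted p under 0.05 (15.1%), and the groups of 1 member, Myh3, did not overlap (9.81%). Voom on recovered reads called 0 members in both. Tnnt2 passed the limit of 0.5 FPKM in the ChMKO mice with the value of mouse KOc345, 1.56 FPKM, included; the other hypoxic ChMKO mice were at 0.212 to 0.423 FPKM. The test of a difference in the hypoxia effect between the genotypes called 0 of 5 members (0% of all genes), with 0 at an unadjusted p under 0.05 (1.23%) in limma and 0 by voom; for Actc1 the difference of the effects was 0.54 (SE 1.15).

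**Figure D5:**
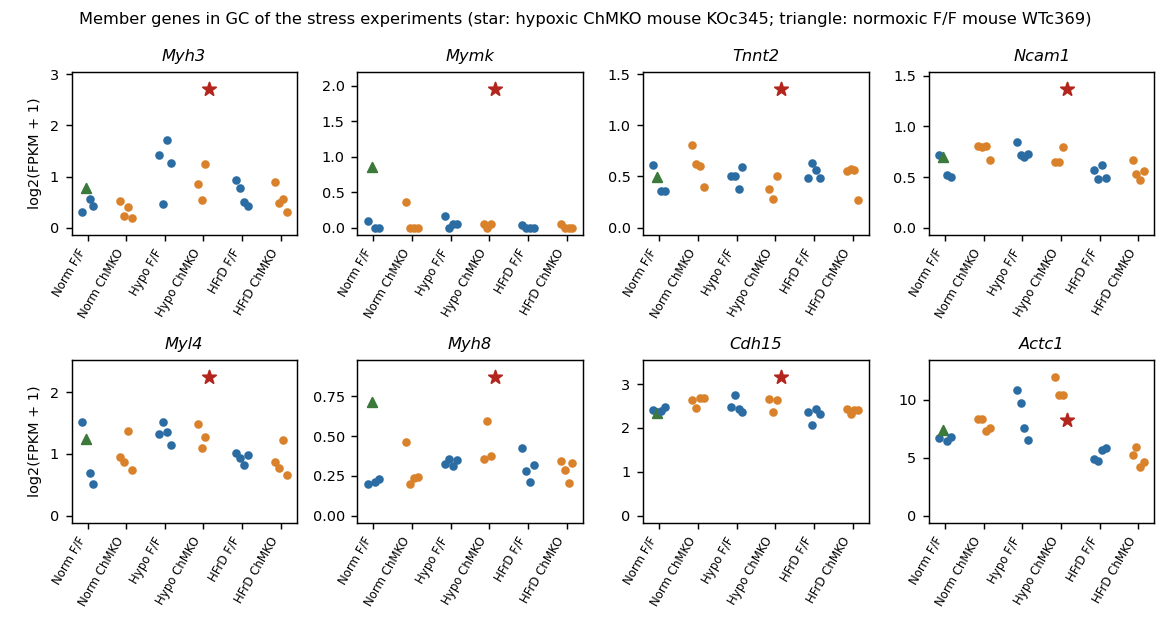
Log2(FPKM + 1) of 8 members in GC of the 24 mice of the stress table, 4 per group; blue points are F/F and orange points ChMKO mice, the star is hypoxic ChMKO mouse KOc345 and the triangle normoxic F/F mouse WTc369. Mouse KOc345 has the highest Myh3, Mymk, Tnnt2, Ncam1, Myl4, Myh8 and Cdh15 values but the lowest Actc1 value of its group.

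A single mouse, hypoxic ChMKO mouse KOc345, had the highest levels of most members in the stress table. Its Mymk level was 2.88 FPKM, or 81 reads, where the other 3 mice of its group were at 0 to 0.0409 FPKM and all other libraries of the table at 0.804 FPKM or less. Mymx was at 1.83 FPKM against 0.202 FPKM or less in the other libraries of the table. Its Myh3 (5.57 FPKM), Tnnt2 (1.56), Ncam1 (1.59), Cdh15 (8.01), Myl4 (3.77) and Myh8 (0.832) were also the highest of the 24 libraries. Myog was at 15 FPKM and Chrng at 0.672 FPKM, both the highest of the table. Macrophage and leukocyte markers summed to 20.0 FPKM (7.62 to 12.0). Its Mlxipl level, 3.24 FPKM, lay in the ChMKO range. The part of these cell types in the values of the members was not tested.

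Normoxic F/F mouse WTc369 and normoxic ChMKO mouse KO_370 also had Mymk and Myog above the other mice of their groups, at levels below those in KOc345. Mouse WTc369 had Mymk at 0.804 FPKM (18 reads), Myh8 at 0.642 FPKM, Myog at 8.67 FPKM and macrophage markers summing to 20.7 FPKM (5.25 to 8.50 in the other mice of its group). Mouse KO_370 had Mymk at 0.291 FPKM (8 reads) and Myog at 9.85 FPKM. In the other 21 libraries Mymk was at 0 to 0.122 FPKM.

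Actc1 was lower on the high-fructose diet without overlap in both genotypes and passed the test in ChMKO mice. In F/F mice it measured 28, 26.1, 51.0 and 56.1 FPKM on the diet against 84.3 to 171 FPKM on the normal diet, without overlap (16.2% of all genes). It was lower by 1.54 on the log2 scale and did not pass (-1.54, SE 0.297, unadjusted p = 6.06e-04, adjusted p = 0.145 by limma). In ChMKO mice it measured 36.7, 60.5, 17.5 and 24 FPKM against 157 to 326 FPKM, without overlap (57.2% of all genes), and fell by 2.88 (SE 0.372, adjusted p = 1.55e-04). The normoxic mice are the controls of both the hypoxia and the diet comparison. By the methods, mice were matched for age and weight before they were assigned to chow or HFrD. Whether the normoxic mice used here were sampled at the same age as the mice on the diet is not given in the sources used here.

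The calls of the adhesion genes in ChMKO mice on the diet depended on the scaling of the libraries, in a comparison where the median of all genes was -0.17. Cdh15 was at 4.52 to 5.44 FPKM on chow and 4.00 to 4.37 FPKM on the diet and fell by 0.23 (adjusted p = 0.0106 by limma; -0.07 and adjusted p = 0.351 with libraries rescaled by the median of ratios). Ncam1 was at 0.590 to 0.755 FPKM on chow and 0.386 to 0.590 FPKM on the diet and fell by 0.21 (adjusted p = 0.0184; -0.14 and adjusted p = 0.0779 after the rescaling). It passed the limit on low values through the chow group, with a mean of 0.706 FPKM against 0.472 FPKM on the diet; in F/F mice (0.530 and 0.455 FPKM) it was not tested, and without the limit it passed in ChMKO mice (adjusted p = 0.0142) and not in F/F mice (-0.07, adjusted p = 0.551). Of all genes 64% passed in this comparison and 44.6% passed as lower, so that the calls of Cdh15 and Ncam1 do not set these genes apart. After the rescaling Actc1 was the only member that passed. In F/F mice 0 of 4 passed in limma (0% of all genes), with 1 at an unadjusted p under 0.05 (23.6%) and 0 by voom on recovered reads. Endothelial and erythroid markers (4 of 4 each) and 3 of 4 fibroblast markers and all 3 macrophage markers tested also fell in the ChMKO mice on the diet, and their part was not tested. Endothelial markers summed to 77.1 to 89.2 FPKM on chow and 41.3 to 51.0 FPKM on the diet in these mice. The myofibre markers, Acta1 among them, summed to 33193 to 38828 FPKM on chow and 27193 to 28831 FPKM on the diet. The share of Actc1 in both actins was 0.624% to 1.59% on chow and 0.123% to 0.417% on the diet. Of 14 fusion genes tested, 2 rose (Crk, Stab2) and 9 fell (among them Cav3, Cd9, Jam3 and Rac1), with a median of -0.28. Of 9 myogenic regulators, 3 rose (Mef2a, Mef2c, Myf5) and 5 fell (among them Mef2d, Myf6, Myod1 and Myog). The genotypes were not shown to differ in the diet effect, with 0 of 4 members passing (0% of all genes), 1 at an unadjusted p under 0.05 (10.3%) in limma and 0 by voom (Actc1 -1.34, SE 0.520, unadjusted p = 0.0210, adjusted p = 0.451).

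Igf2 had a level in the stress table that could not be compared with the others. It was at 0.0182 to 0.203 FPKM (2 to 22 reads) in all 24 libraries, against 2.84 FPKM or more in every chow library and 5.68 FPKM or more in every AAV library. In the GENCODE annotation of the mouse (vM21), 63.3% of the windows of 75 bases in Igf2 transcripts also occur in Gm49394, a gene that overlaps Igf2 on the same strand and was listed at 0 in all 24 stress libraries. How the reads of this locus were assigned was not tested.

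The genes most like 4 of the members over the 24 stress libraries are given as a description, since these libraries share groups and a table. Actc1 was most like Ldb3, Eno3 and Capzb (Pearson r 0.94, 0.93 and 0.92). Over the 20 chow libraries the same pairs had r of -0.51, 0.93 and 0.91. Ncam1 was most like Cops3, Atp9a and Rab22a (0.90, 0.89 and 0.89; chow -0.16, 0.89 and 0.85). Cdh15 was most like Unc45b, Zpr1 and Exosc5 (0.88, 0.88 and 0.87; chow 0.29, 0.46 and 0.50), and Myl4 like Ppp1r1a, Mustn1 and Smyd3 (0.88, 0.84 and 0.83; chow 0.55, 0.54 and -0.52). For Ldb3, Cops3 and Smyd3 the sign was thus not kept between the tables.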

How the data were processed

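The authors deposited 4 tables of FPKM values, which are normalized to transcript length and to the mapped reads of each library and are not counts. The labels and methods name fastp 0.18.0, HISAT2 2.1.0, Bowtie2 2.2.8, StringTie 1.3.1, RSEM and the build GRCm39, without assigning each to a table. Columns of the authors' own comparisons (fold changes and p-values) were not used. In the stress table whole reads could be recovered from the FPKM (100% of values within 0.02 of a whole number). Differences were tested with limma 3.58.1 in R 4.3.3 (lmFit, eBayes with trend) on log2(FPKM + 1), for genes whose mean FPKM over the compared libraries reached 0.5, over 13 comparisons and 3 interaction terms, because the unit of all 4 tables is FPKM, with voom on recovered reads as the alternative where reads could be recovered. The interaction of genotype and muscle had the mouse as a random effect.

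The members, lists and tests were chosen with earlier results of these data known. All 10 members are named, list genes where they passed or are partners of a member, and the 3 most similar genes for 4 members. Alternatives were a pseudocount of 0.1, no limit on low values, rescaling by the median of ratios, leaving out each library, a replicate block and voom on recovered reads. The tests were also tested on simulated data. Titles of F/F libraries also carry the words ChMKO mice, and the genotype label (flox without Cre) and the code WT in the title were followed. SOL and GC share mice by their labels, except that 1 F/F SOL library has the number 59 in its title and 69 in its column name and was taken as mouse 69; the correlation of the deviations of a pair from the group means was -0.02 to 0.32 in F/F and 0.02 to 0.05 in ChMKO mice. The labels do not say whether AAV samples with the same number come from 1 mouse. Their deviations had r of 0.21 to 0.49, and the highest r with another number was 0.18 to 0.34. For sample 3 the r was higher with another number (0.30) than with the same number (0.21). The main fit did not pair these samples, and the numbers served as pairs only in the replicate block and in the counts of samples of the same number. Promoters and microRNAs are from RefSeq (GRCm38.p6), transcripts from GENCODE vM21 (GRCm38). The chow table gives gene coordinates, and for 8 of the 10 members they equal those of GRCm38.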

Additional observations from a re-analysis of the deposited data

Results flagged for a closer look

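In 144 groups of 4 or 5 libraries (members and Mlxipl), 16 held 1 library set far apart from the others by Dixon's test at the 95% level. A library above 0 is always flagged where the others are at 0, and several flags come from the same mouse. The number of flags therefore cannot be set against a rate given by chance. Of these, 6 were groups in which no library reached 0.5 FPKM. In hypoxic ChMKO mouse KOc345 they were Mymk (2.88 FPKM, next 0.0409), Tnnt2 (1.56 FPKM, next 0.423) and Ncam1 (1.59 FPKM, next 0.742). In normoxic F/F mouse WTc369 they were Mymk (0.804 FPKM, next 0.0717) and Myh8 (0.642 FPKM, next 0.175). In normoxic ChMKO mouse KO_370 they were Mymk (0.291 FPKM, the others at 0) and Myh8 (0.378 FPKM, next 0.182). Ncam1 was high in hypoxic F/F mouse WTc341 (0.801 FPKM, next 0.654) and low in normoxic ChMKO mouse KO_380 (0.590 FPKM, next 0.732). On the high-fructose diet, Mymk was above 0 in 1 mouse of each genotype (0.0384 FPKM in KO_C291 and 0.0299 FPKM in WT_C292), and Tnnt2 was low in KO_C309 (0.204 FPKM, next 0.464). Mlxipl was high in hypoxic F/F mouse WTc360 (8.76 FPKM, next 8.05) and was 0.02 FPKM in C2C12 well 2 with vector, the others at 0. In the AAV table Actc1 was high in AAV-ChREBP sample 1 (3493 FPKM, next 1658), and in C2C12 cells Cdh15 was low in well 4 with ChREBP (169 FPKM, next 171).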

How the results depend on the processing

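Of the members with an unadjusted p under 0.05, none reversed its direction under the alternatives run, 3 calls were lost with rescaling, and 4 were gained by leaving out 1 library. Without the limit on low values, Mymk passed in SOL versus GC of both genotypes. The count of members that passed moved by over 1.5 times in 2 settings: without hypoxic ChMKO mouse KOc345, 1 member (Actc1) passed in the hypoxia comparison of ChMKO mice instead of 0, and with libraries rescaled by the median of ratios, 1 member passed in the diet comparison of ChMKO mice instead of 3; the cause was not tested. Over the other libraries left out of the ChMKO hypoxia comparison the count stayed at 0, so its range was 0 to 1. With the replicate block, which pairs SOL and GC by mouse and the AAV samples by number, the counts were 6 in F/F and 7 in ChMKO mice on chow and 0 in the AAV table, and no call changed. In C2C12 cells the numbers did not pair the wells (r -0.09 to 0.18), and the block left 7 members past the threshold. The share of all genes past the adjusted test was not counted for the block or the rescaling. These counts therefore show only whether the calls held. Members under 0.5 FPKM (among them Mymk in muscle, Myh3 in the AAV table, Myh8 in the stress and AAV tables and Igf2 in the stress table) were tested only without the limit.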
